A study of Homo sapiens with 12 samples.

Results

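AHCY and 7 further genes of the methionine cycle were followed in YBX1-deficient MOLM13 cells, an established line of human acute myeloid leukaemia (AML). The 8 genes (AHCY, AHCYL1, AHCYL2, MAT2A, MAT2B, MTR, MTRR and MTAP) were found by their symbols among 19755 protein-coding genes with a deposited value, and all 8 passed the filter on low values (a mean of at least 4) that left 10982 genes for testing. AHCY was selected on its lower mRNA level with both guides against YBX1, so its difference from control is a description with no test. The other 7 were taken for their link to the cycle or to AHCY, with earlier results of these data known.

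The cells carried a stable Cas9 and were collected 7 days after transduction with a guide vector that confers puromycin resistance and red fluorescence, in 3 groups of 4 libraries: a control (labelled as empty vector in some fields and as a guide without a target in others), and sgRNA1 and sgRNA2, which both target YBX1. All 3 groups had been through blasticidin, puromycin and a sort of the brightest fluorescent cells, and polyadenylated RNA was sequenced. The sgRNA1 and sgRNA2 groups thus hold mixed populations of edited cells of a single line, not clones. The labels do not say whether the 4 libraries of a group came from separate transductions, so p-values measure the spread between these libraries. Libraries of the 3 groups carry the numbers 1 to 4, and the labels do not state what a number stands for.

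S-adenosylmethionine, the methyl donor of nearly all cellular methyltransferases, is made from methionine and ATP. Each transfer of its methyl group leaves S-adenosylhomocysteine, a product inhibitor of methyltransferases that AHCY splits into adenosine and homocysteine. Homocysteine is methylated back to methionine or drawn off into cysteine synthesis, and methylthioadenosine, a by-product of polyamine synthesis, is salvaged to methionine along a side branch. The cycle supplies the methylation of DNA, RNA and histones, and the salvage branch is often lost in tumours together with the neighbouring tumour suppressor CDKN2A.

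Values are regularised log2 levels (rlog), the unit the authors deposited, in which a difference of 1 is a doubling. YBX1, the targeted gene, stood at 12.91, 12.96, 12.76 and 12.81 in control libraries 1 to 4, at 11.20, 11.38, 11.08 and 11.09 with sgRNA1 and at 11.93, 12.07, 11.83 and 11.89 with sgRNA2. No guide library reached a control library, and the guide mean was 40.6% of control (exact two-sided permutation test over the 12 libraries, p = 0.00202, the smallest it can give). All 12 myeloid markers passed the filter, with ANPEP lowest (3.90 to 4.18). The log2 of their summed levels was 14.18 to 14.35 in control, 14.24 to 14.36 with sgRNA1 and 14.32 to 14.38 with sgRNA2. The strongest markers dominate such a sum. Of 13 markers of other cell types 3 passed the filter, among them KRT18 and PECAM1, and 3 (MS4A1, HBB and HBA1) were listed at 0 throughout. The log2 of the summed levels of the 13 was 9.68 to 10.04, 9.67 to 10.05 and 9.82 to 10.13 in control, sgRNA1 and sgRNA2. The library sgRNA2 3 stood apart, since its deviations from the group mean followed the number 4 libraries of the other groups (r of 0.75 and 0.73 over all tested genes) more closely than the number 3 libraries (0.38 and 0.53).

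On GRCh38 (GENCODE 29) AHCY lies on chromosome 20 at 34280268 to 34311802 on the reverse strand, and the other members lie on forward strands. AHCYL1 is on chromosome 1 at 109984686 to 110023741, AHCYL2 on chromosome 7 at 129225023 to 129430211, MAT2A on chromosome 2 at 85539165 to 85545280 and MAT2B on chromosome 5 at 163503114 to 163519336. MTR is on chromosome 1 at 236795281 to 236903981, MTRR on chromosome 5 at 7851186 to 7906025 and MTAP on chromosome 9 at 21802543 to 21937651. Exons of AHCY overlap AL035458.2 on the same strand, exons of MAT2A overlap GGCX on the opposite strand, exons of MTRR overlap C5orf49 and FASTKD3 on the opposite strand, and exons of MTAP overlap the protein-coding model AL359922.1 on its own strand. The annotation names 6 processed pseudogenes of AHCY and 2 of MTAP. Whether counting used the strand is not given in the sources used here, and reads were 37 bases long, so the split of reads between these members and their overlapping genes or copies is uncertain.

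YBX1 is named for the Y box, a promoter element with an inverted CCAAT sequence, and the 250 bases before a start site are therefore shown for AHCY, the member lowered with both guides, and for MTR, the member with the largest difference among the others. Capitals mark CCAAT or its reverse complement ATTGG, searched on both strands with no overlap among these matches. Both sequences are RefSeq promoters of GRCh38.p14, written 5′ to 3′ on the strand of the gene, AHCY from chr20:34303356-34303605 (reverse strand) and MTR from chr1:236795031-236795280 (forward strand).
AHCY: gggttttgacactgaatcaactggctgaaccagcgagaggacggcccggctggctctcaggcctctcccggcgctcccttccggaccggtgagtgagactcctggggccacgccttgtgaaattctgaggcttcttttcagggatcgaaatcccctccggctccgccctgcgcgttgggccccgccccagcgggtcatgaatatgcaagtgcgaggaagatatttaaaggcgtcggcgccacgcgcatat
MTR: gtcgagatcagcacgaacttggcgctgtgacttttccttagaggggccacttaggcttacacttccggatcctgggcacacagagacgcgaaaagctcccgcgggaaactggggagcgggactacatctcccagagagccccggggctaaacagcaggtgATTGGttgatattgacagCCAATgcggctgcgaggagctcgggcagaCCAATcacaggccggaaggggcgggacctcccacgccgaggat
The MTR stretch held 3 matches, which begin at positions -90, -72 and -43 from the start site, and the AHCY stretch held none. RefSeq gave 18 promoter windows of 300 bases for 7 of the members, with none for MTRR. Of these windows 7, from 6 members, held CCAAT or ATTGG, while all 3 AHCY windows lacked it. Counted by window, 34.6% of all 35116 of this length held it. Both MTR windows overlap and share the same matches. The AHCY stretch shown lies before the start site at 34303355, and the other AHCY windows have other start sites. The E-box CACGTG was found in none of the 18 windows and in 7.26% of all. These are matches of letters and not measured binding.

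Hydrolysis of S-adenosylhomocysteine is the step of AHCY. Its rlog value was 11.34, 11.45, 11.43 and 11.43 in control libraries 1 to 4. With sgRNA1 it was 10.95, 11.21, 11.00 and 11.01, and with sgRNA2 10.99, 11.28, 11.10 and 11.06. The lowest control library lay above the highest guide library, and library 2 was the highest of its group in all 3 groups. Group means were 11.41 ± 0.05 (SD, n = 4) in control, 11.04 ± 0.11 with sgRNA1 and 11.11 ± 0.12 with sgRNA2. The guide mean was lower by 0.34 on the log2 scale (SE 0.059), or 79.0% of control, and the single guides stood at 77.2% and 80.9%. In bulk RNA a lower share of cells with the transcript and less transcript per cell cannot be told apart. The difference was the 8th lowest of 10982 genes tested, a rank that describes the choice of the gene. Against the control library of the same number AHCY was lower in 8 of 8 guide libraries, by 0.18 to 0.43 on the log2 scale, and the smallest differences were those of number 2. Without sgRNA2 3 the log2 difference of both guides was -0.34.

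**Figure D1:**
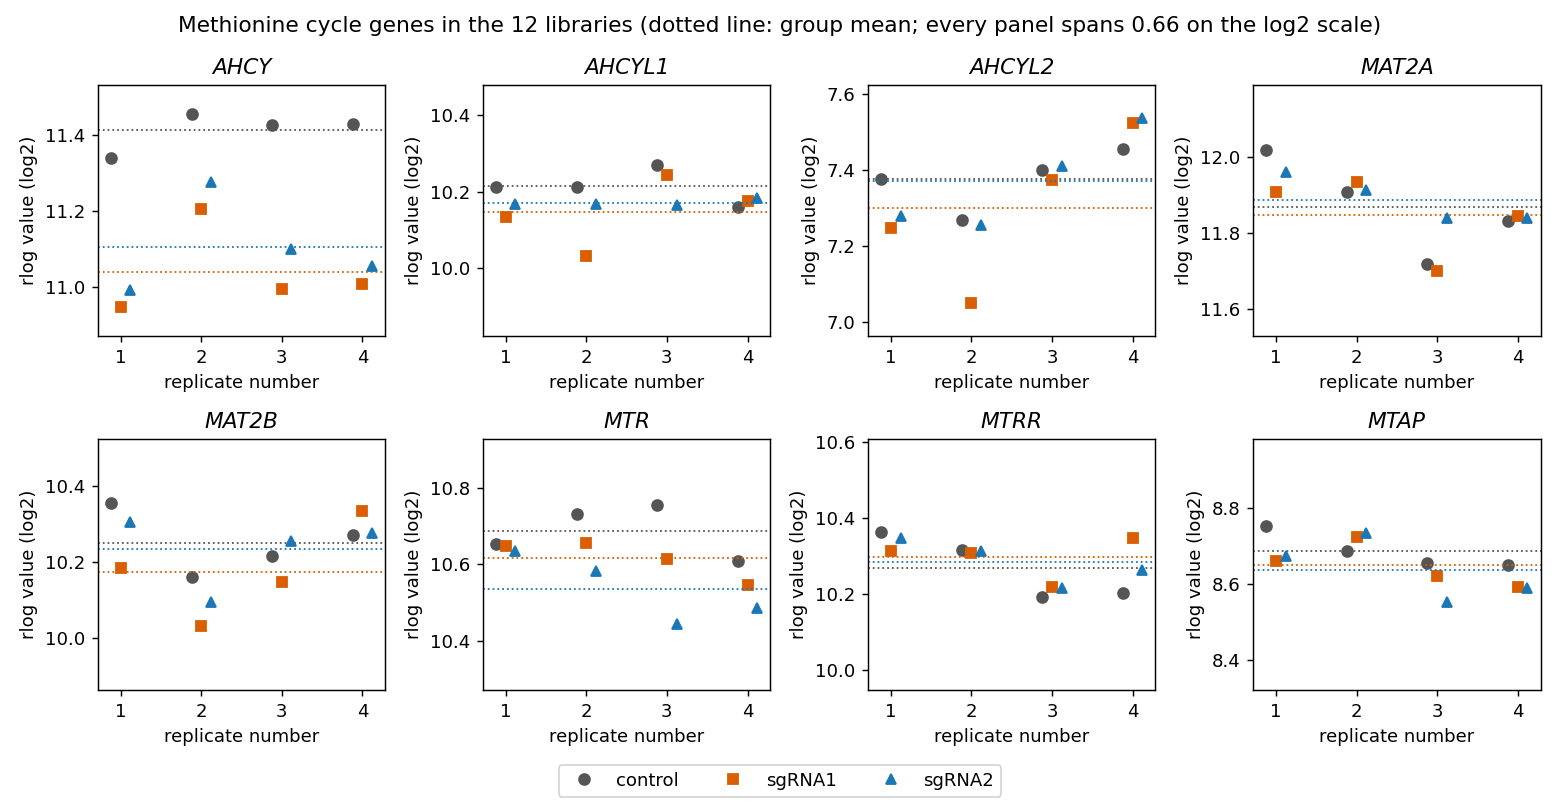
The rlog value (log2) of each gene is plotted against the replicate number for control (circles), sgRNA1 (squares) and sgRNA2 (triangles), with dotted lines at group means and panels of equal height. The 4 control libraries of AHCY (11.34 to 11.45) sit above its 8 guide libraries (10.95 to 11.28), while guide and control libraries mix in the other 7 panels. AHCY was chosen on this difference, and the share of all genes set apart in this way is not given.

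AHCY was chosen against control and not on the difference between the guides, although its guide libraries entered that choice. The guide difference is the mean of sgRNA2 minus that of sgRNA1, and its error comes from the spread within all 3 groups, control included. AHCY differed between sgRNA2 and sgRNA1 by 0.07 on the log2 scale (95% interval -0.08 to 0.21), which is within the spread of the libraries. YBX1 itself was higher with sgRNA2 by 0.75 (95% interval 0.58 to 0.91, limma adjusted p = 0.00133). For 0 of the other 7 members did the guides differ past the threshold in limma, against 0.00911% of all genes tested. At an unadjusted p under 0.05 there were also 0, against 92 of all 10982 genes. The other 7 members had differences of -0.08 (MTR) to 0.07 (AHCYL2). The intervals leave room for differences in either direction, for MTR from -0.20 to 0.04 and for AHCYL2 from -0.13 to 0.27.

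For the 7 members other than AHCY, both guides against control gave 0 calls in limma (adjusted p 0.648 to 0.997, with 1 of 7, MTR, at an unadjusted p under 0.05), where 0.100% of all genes tested were called. With the replicate number as a block (a fit that compares libraries of the same number) the members again gave 0 calls, with MTR alone at an unadjusted p under 0.05, against 5.40% of all genes called. Of all 10982 genes 821 had an unadjusted p under 0.05 without the block and 2206 with it. For the single guides these counts were 604 and 1841 (sgRNA1) and 587 and 2095 (sgRNA2). AHCY, on whose level the choice was made, is not read against these shares. For sgRNA1 alone the 7 gave 0 calls and none at an unadjusted p under 0.05, without the block (0.0455% of all genes called) or with it (3.21%). For sgRNA2 alone they gave 0 calls without the block (0.0364% of all genes, MTR at an unadjusted p under 0.05) and 1 of 7 with it, MTR, against 3.95% of all genes. The 2 guides share the control libraries, so that their contrasts are not independent.

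AHCYL1 and AHCYL2 are relatives of AHCY that are not known to hydrolyse S-adenosylhomocysteine. AHCYL1, also called IRBIT, binds the inositol trisphosphate receptor, and AHCYL2 is its longer relative. AHCYL1 had rlog values of 10.21, 10.21, 10.27 and 10.16 in control, 10.13, 10.03, 10.24 and 10.18 with sgRNA1 and 10.17, 10.17, 10.16 and 10.18 with sgRNA2. The groups overlapped, and the 4 sgRNA2 libraries lay within 0.02 of each other. The log2 fold change of both guides was -0.06 (95% interval -0.14 to 0.03, limma adjusted p = 0.864). AHCYL2 was the weakest member, at 7.38, 7.27, 7.40 and 7.46 in control, 7.25, 7.05, 7.37 and 7.52 with sgRNA1 and 7.28, 7.26, 7.41 and 7.53 with sgRNA2. It was low in number 2 and high in number 4 of every group, and its log2 fold change was -0.04 (-0.21 to 0.13, limma adjusted p = 0.974). The difference of AHCY from AHCYL1 within a library, in which transcript length cancels when groups are compared, was 1.20 ± 0.07 (SD, n = 4) in control, 0.89 ± 0.19 with sgRNA1 and 0.94 ± 0.12 with sgRNA2 on the log2 scale. The highest sgRNA1 library (1.17) overlapped the control range (1.13 to 1.27), and the sgRNA2 libraries (0.83 to 1.11) did not. AHCY was chosen for its lower level with the guides, and a smaller difference there follows from that choice.

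MAT2A, the catalytic subunit that makes S-adenosylmethionine outside the liver, is known to be controlled through the stability and splicing of its mRNA. It had rlog values of 12.02, 11.91, 11.72 and 11.83 in control, 11.91, 11.93, 11.70 and 11.84 with sgRNA1 and 11.96, 11.91, 11.84 and 11.84 with sgRNA2. Number 3 was the lowest library of control and sgRNA1, and the groups overlapped throughout. The log2 fold change was -0.00 (95% interval -0.13 to 0.12, limma adjusted p = 0.997), so that guide libraries averaged 99.9% of control. MAT2B, the regulatory subunit, stood at 10.36, 10.16, 10.22 and 10.27 in control, 10.18, 10.03, 10.15 and 10.33 with sgRNA1 and 10.31, 10.10, 10.26 and 10.28 with sgRNA2. Its lowest library was number 2 in every group, and its log2 fold change was -0.05 (-0.17 to 0.08, limma adjusted p = 0.947). MAT1A, the liver form of the synthetase, was listed at 0 in every library.

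MTR, the cobalamin-dependent methionine synthase, methylates homocysteine back to methionine. It had rlog values of 10.65, 10.73, 10.76 and 10.61 in control. The sgRNA1 libraries stood at 10.65, 10.66, 10.61 and 10.55, and the sgRNA2 libraries at 10.63, 10.58, 10.44 and 10.49. MTR was lower than the same-numbered control in 8 of 8 guide libraries, by 0.01 to 0.31, although guide and control libraries overlapped. The 8 pairs share the 4 control libraries, and the share of all genes lower in every pair is not given here. The means were 10.69 ± 0.07, 10.62 ± 0.05 and 10.54 ± 0.09 (SD, n = 4) in control, sgRNA1 and sgRNA2. Both guides together gave a log2 fold change of -0.11 (SE 0.049, limma adjusted p = 0.648), sgRNA1 one of -0.07 (SE 0.055, 0.999) and sgRNA2 one of -0.15 (SE 0.055, 0.812). With the replicate block the sgRNA2 difference passed the threshold (SE 0.043, limma adjusted p = 0.0492). This call was held in 3 of the 12 block fits that left out 1 library (adjusted p 0.0364 to 0.261). It was lost, among others, without sgRNA2 3, the library that stood apart and the lowest of MTR (-0.11, adjusted p = 0.147), and without control 3, the highest (-0.11, 0.261). The difference between the guides for MTR did not pass (-0.08, adjusted p = 0.757 with the block).

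**Figure D2:**
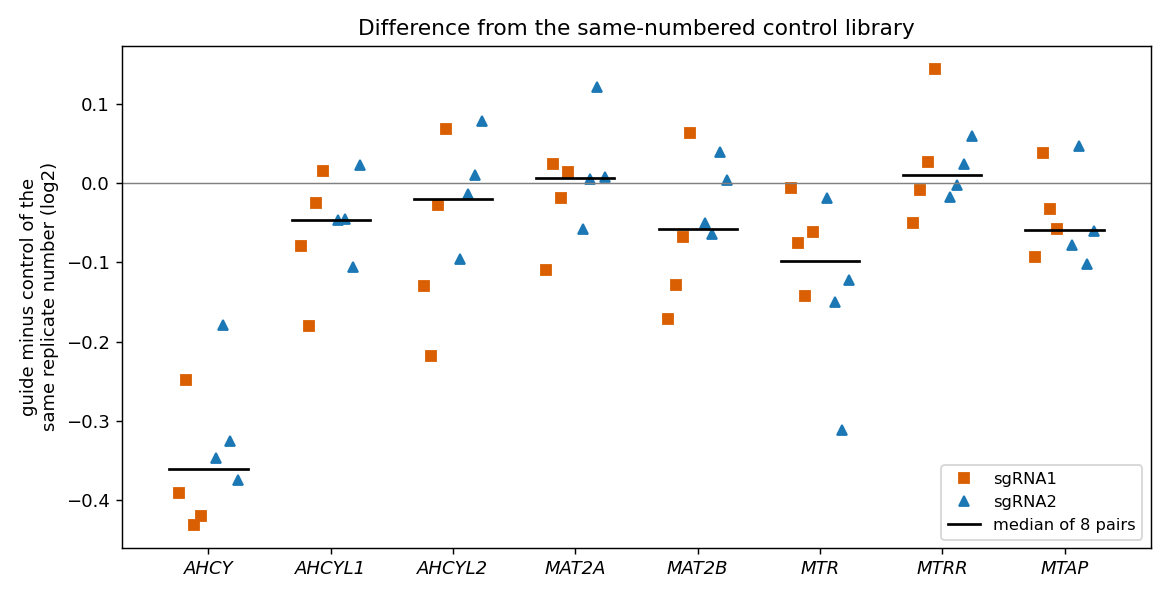
Each point is a guide library minus the control library of the same replicate number (log2) for sgRNA1 (squares) and sgRNA2 (triangles), and the black bar is the median of the 8 pairs. AHCY (-0.43 to -0.18), which was chosen on its guide difference, and MTR (-0.31 to -0.01) lie below 0 in all 8 pairs. The other 6 genes fall on both sides of 0. The 8 pairs share the 4 control libraries, and the share of all genes below 0 in every pair is not given. MTR did not pass for both guides in limma (adjusted p = 0.648, and 0.104 with the block).

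MTRR, the reductase that returns the cobalamin of MTR to its active state, stood at 10.36, 10.32, 10.19 and 10.20 in control, 10.31, 10.31, 10.22 and 10.35 with sgRNA1 and 10.35, 10.31, 10.22 and 10.26 with sgRNA2. It was lower than the same-numbered control in 4 of 8 guide libraries, with a log2 fold change of 0.02 (95% interval -0.07 to 0.12, limma adjusted p = 0.975). The difference of MTR from MTRR within a library was 0.42 ± 0.11 (SD, n = 4) in control, 0.32 ± 0.08 with sgRNA1 and 0.25 ± 0.03 with sgRNA2 on the log2 scale. Homocysteine can also be remethylated by BHMT, which was below the filter, and by its relative BHMT2, which was listed at 0 in every library.

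MTAP, which cleaves methylthioadenosine in the salvage branch, stood at 8.75, 8.69, 8.65 and 8.65 in control, 8.66, 8.72, 8.62 and 8.59 with sgRNA1 and 8.67, 8.73, 8.55 and 8.59 with sgRNA2. It was lower in 6 of 8 same-numbered pairs, and its log2 fold change was -0.04 (95% interval -0.14 to 0.05, limma adjusted p = 0.924). Its neighbours CDKN2A and CDKN2B on the short arm of chromosome 9 were listed at 0 in every library. Of 10 genes listed around MTAP 4 passed the filter (MLLT3, FOCAD, HACD4 and KLHL9), and 0 of these passed for both guides in limma, with the block or without it (0 at an unadjusted p under 0.05 in both fits), at log2 fold changes of -0.03 to 0.07.

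A limma F test of the number, with the group in the model, passed for 4 of the 8 members, a share close to the 51.8% of all genes tested. AHCY passed (adjusted p = 0.00434), with means of 11.09, 11.31, 11.17 and 11.16 for numbers 1 to 4, and so did AHCYL2 (0.000946), MAT2A (0.00353) and MAT2B (0.00620). AHCYL1 (0.424), MTR (0.201), MTRR (0.0840) and MTAP (0.139) did not. The call of AHCY was lost without sgRNA1 2 (adjusted p = 0.0564) or sgRNA2 2 (0.0568), which were the highest guide libraries, while MTRR passed without control 4 (0.04995) or sgRNA1 4 (0.0396). Of the variance of AHCY over the 12 libraries 77.9% lay between groups and 18.3% between numbers, and the median tested gene had 11.0% and 57.4%. The group share of AHCY follows from its choice on the guide difference and is given as a description. MTR had 50.8% and 24.5%. MAT2A had 3.58% and 81.2%, AHCYL2 7.23% and 78.7%, and the other 4 members had 3.78% to 23.7% between groups and 30.8% to 70.5% between numbers.

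**Figure D3:**
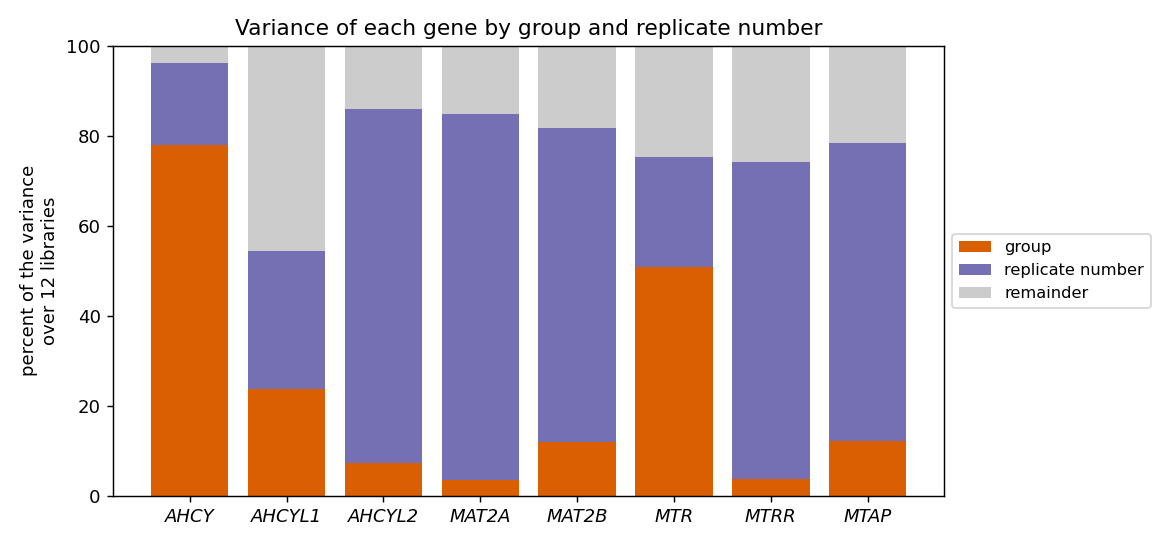
Stacked bars give the percent of the variance of each gene over the 12 libraries that lies between the 3 groups, between the 4 replicate numbers and in the remainder. The group takes 77.9% for AHCY, which was chosen on its guide difference, and 50.8% for MTR, and the replicate number takes 66.3% to 81.2% for AHCYL2, MAT2A, MAT2B, MTRR and MTAP.

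Levels of different members were compared per transcript length, as the rlog value minus the log2 of the longest annotated transcript in kb. MAT2A was highest at 10.37 and AHCY next at 9.94, with library ranges that overlapped. MTRR (8.57) and MAT2B (8.45) followed, and their ranges overlapped as well. AHCYL1 (8.07), MTR (7.22), MTAP (5.74) and AHCYL2 (5.01) came below them, each clear of its neighbours in every library. The order depended on the length used, since with the median transcript length MTRR (11.10) passed AHCY (10.46), AHCYL1 (9.46) passed MAT2B (9.36) and MTAP (8.61) passed MTR (8.23). MAT2A stayed first (11.78) and AHCYL2 last (7.97).

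**Figure D4:**
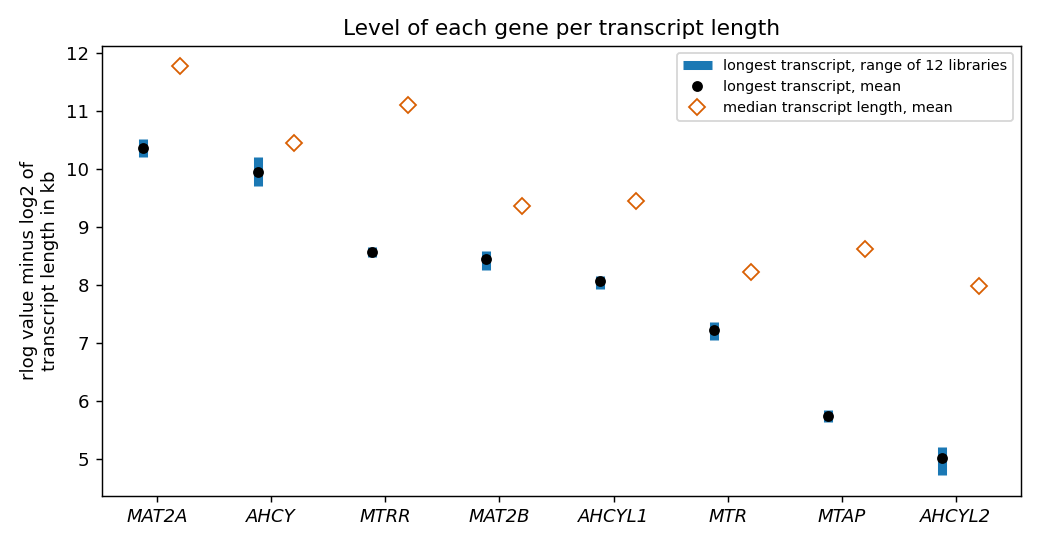
Blue bars give the range over the 12 libraries, and black points the mean, of the rlog value minus the log2 of the longest transcript in kb, and open diamonds give the mean with the median transcript length. MAT2A leads and AHCYL2 is last with both lengths, and MTRR moves above AHCY with the median length.

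The genes whose levels followed AHCY most closely over the 12 libraries were EIF3D (Pearson r = 0.97) and EIF3L (0.95), subunits of the initiation complex eIF3, CS (0.95), the citrate synthase, NONO (0.94), a nuclear RNA-binding protein, and EEF2 (0.94), the translocase of elongation. The points share 3 groups and 4 replicate numbers, and the median r of all genes was 0.02. EIF3D, EIF3L, CS, NONO and EEF2 were picked by their r with AHCY, itself chosen for its fall with both guides. Their adjusted p for both guides therefore follow in part from that choice and are given as a description. Of all genes tested limma called 0.100% for both guides without the block and 5.40% with it. EIF3L and EIF3D fell with both guides in limma, by 0.68 (adjusted p = 0.00166) and 0.32 (0.0305). When a library was left out EIF3L passed in 12 of 12 fits and EIF3D in 2 (adjusted p up to 0.181). Without the block CS (-0.19, 0.164), NONO (-0.11, 0.482) and EEF2 (-0.34, 0.183) did not pass, and with it CS (block adjusted p = 0.00494) and EEF2 (0.00256) passed and NONO (0.0515) did not. YBX1 ranked 24th, with r = 0.88, and 499th, with r = 0.63, once group means were taken out. Since AHCY was chosen for its lower level with the guides, a high r with YBX1 and with other genes lowered by the guides follows from that choice. Once group means were taken out, other genes followed AHCY, among them ADAM15 (0.94), a metalloproteinase, NSMF (0.92), FAU (0.91), a ribosomal protein fused to a ubiquitin-like one, and NUP210 (0.91) of the nuclear pore. Among the members MTAP had the highest r of these deviations (0.40) and MAT2B the lowest (-0.80), and MAT2B was low in number 2, where AHCY was high.

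Around the members, 12 lists held 135 genes of connected pathways, of which 116 were tested. Without the block 1 of the 116 passed for both guides, ADA2, a secreted adenosine deaminase, which rose by 0.49 (SE 0.082, limma adjusted p = 0.0322). It passed in 1 of the 12 fits without the block that left out a library (adjusted p up to 0.181) and in 12 of 12 with the block. With the block 9 fell and 3 rose, beside the 5.40% of all genes called in either direction. At an unadjusted p under 0.05 in limma were 2206 of all 10982 genes with the block and 821 without. Of 8 tested genes of the other methionine cycle and cobalamin steps 0 passed in limma with or without the block (1 and 0 at an unadjusted p under 0.05), and the median log2 fold change was -0.03, beside -0.01 for all genes. Among these MMACHC, which processes cobalamin, had the lowest value (-0.11, block adjusted p = 0.123). Of 10 transsulfuration and glutathione genes, which use homocysteine for cysteine, 0 passed in limma with or without the block (0 at an unadjusted p under 0.05 in both fits), and their median was 0.02. Of 8 genes of methylthioadenosine production and salvage AMD1, the decarboxylase that diverts S-adenosylmethionine to polyamines, fell with the block (-0.17, block adjusted p = 0.0111, 0.557 without), and the median was -0.02. Adenosine is the other product of AHCY. Among 8 tested genes listed around its handling ADA2 rose and 7 did not pass in either fit.

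Enzymes that spend S-adenosylmethionine were tested in 5 lists. Of 9 protein arginine methyltransferases and their partners 0 passed in limma with or without the block (4 and 0 at an unadjusted p under 0.05), with 7 below 0 and a median of -0.07. Of all 10982 genes 2206 had an unadjusted p under 0.05 with the block, and 5885 were below 0. Of 22 histone lysine methyltransferases SMYD2 (-0.17, block adjusted p = 0.0150) and NSD2 (-0.14, 0.0498) fell with the block, and KMT2D rose with it for sgRNA1 alone (0.27, 0.0258). The DNA methyltransferases DNMT1 (-0.07), DNMT3A (0.05) and DNMT3B (0.03) did not pass in either fit. Of 21 RNA methyltransferases RNMT, which methylates the mRNA cap (-0.16, block adjusted p = 0.0161), and FBL, the fibrillarin of ribosomal RNA 2′-O-methylation (-0.18, 0.0213), fell with the block. LCMT1 (-0.16, 0.0258), which methylates phosphatase 2A, and ICMT (-0.13, 0.0290), which methylates prenylated proteins, fell with it among 10 small-molecule and other methyltransferases. Each of these genes had an adjusted p of 0.230 or more for both guides without the block. With the block 5.40% of all genes tested were called for both guides. When a library was left out of the block fit, RNMT, FBL and SMYD2 passed in 10 of 12 fits, ICMT in 7, LCMT1 in 5 and NSD2 in 4.

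Of 7 transporters of methionine and neutral amino acids SLC7A5, also called LAT1, fell with the block (-0.23, block adjusted p = 0.00266) and SLC43A2 rose (0.18, 0.0365). Among 6 partners of AHCYL1 ITPR1, an inositol trisphosphate receptor, rose (0.20, block adjusted p = 0.0142) and RRM1, the large subunit of ribonucleotide reductase, fell (-0.14, 0.0212). SLC7A5 and TP53INP2 passed in 12 of 12 block fits that left out a library, AMD1 and ITPR1 in 10, RRM1 in 7 and SLC43A2 in 4. Of 25 tested neighbours of AHCY within 1 Mb on chromosome 20 TP53INP2 rose with the block (0.24, block adjusted p = 0.00398, 0.113 without) and the other 24 did not pass. Beside the counts of these lists and of the markers below, this fit called 5.40% of all genes tested. In the same blocked fit MPO, a myeloid granule enzyme, fell (-0.42, block adjusted p = 2.63e-05). CSF1R (0.25, block adjusted p = 0.0439) and ITGAM (0.24, 0.0148), surface proteins of monocytes, rose. The rest of the 12 myeloid markers did not pass, among them FLT3 (0.05), HOXA9 (0.04) and MEIS1 (0.03). Above 0 were 11 of the 12, and of all 10982 genes 5885 were below 0. Without the block the adjusted p of MPO, CSF1R and ITGAM was 0.133, 0.619 and 0.668. MPO passed in 12 of 12 block fits that left out a library, ITGAM in 9 and CSF1R in 3 (adjusted p up to 0.226). The part of these markers in the differences of AHCY, MTR and the genes of these lists was not tested.

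**Figure D5:**
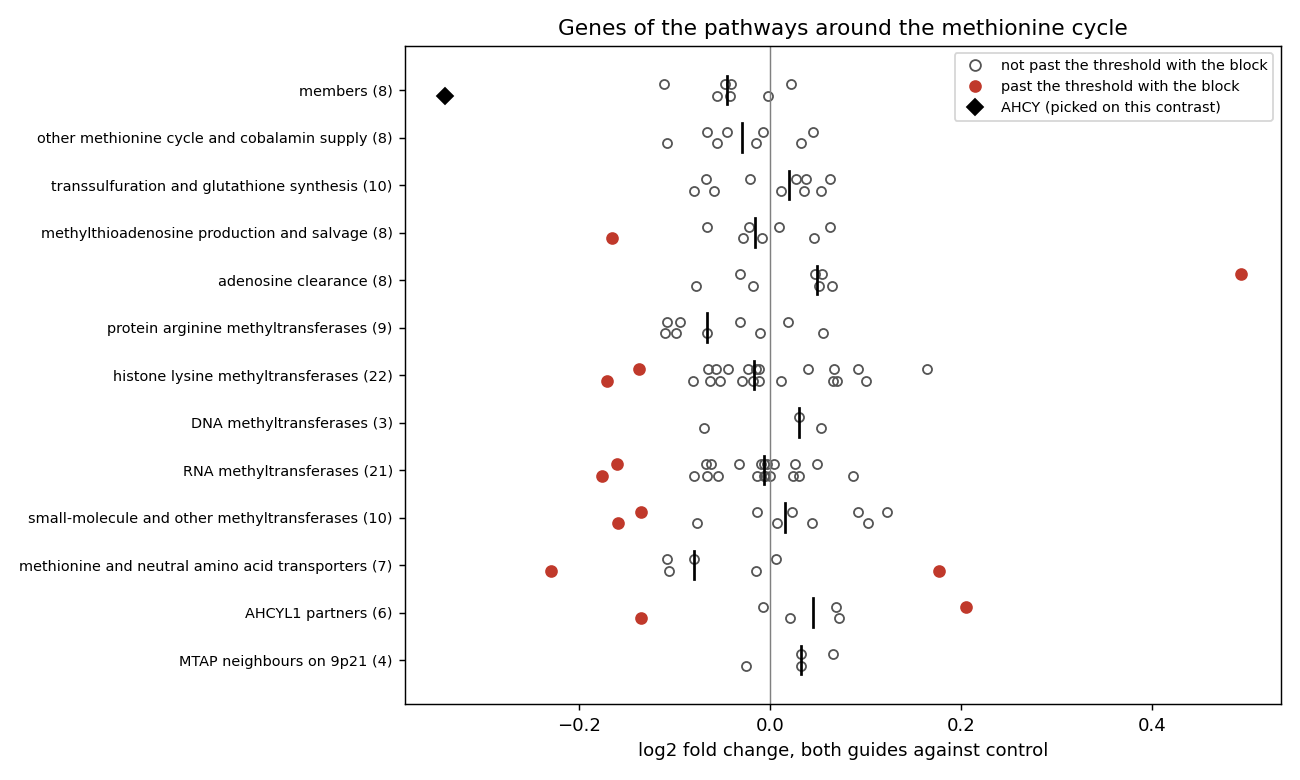
Each point is the log2 fold change of a tested gene for both guides against control, by list with the number of genes tested, and black bars are list medians. Filled points passed the threshold with the replicate block, among them SLC7A5 (-0.23), AMD1 (-0.17) and ADA2 (0.49), and the diamond is AHCY (-0.34), which was chosen on this contrast.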

How the data were processed

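The authors deposited rlog values (regularised log2, from DESeq2) per library. Per the labels the authors demultiplexed with bcl2fastq 2.20.0.422, aligned to GRCh38 with STAR 2.7.5a, handled alignments with SAMtools and Picard 2.9.4 and counted with HTSeq 0.6.1pl, and the table's name states that duplicates were removed. The transformation scales libraries by size factors and shrinks weakly expressed genes towards their mean, so that fold changes of low genes come out smaller, and depth per library is unknown from this table. The authors' columns of fold changes and p-values were not used.

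Of 19755 genes, 3669 were constant over the libraries, and 10982 had a mean rlog of at least 4 and were tested. Fits used limma 3.58.1 (lmFit, eBayes with trend, two-sided, Benjamini-Hochberg over all genes tested, threshold 0.05) in R 4.3.3. A 2-level model compared both guides with control, and a 3-group model gave single guides and sgRNA2 against sgRNA1. The F test of the replicate number kept group as a term. YBX1 was tested by an exact permutation test. Standard errors and intervals (95%) are limma's. Deviations from group means correlated at 0.38 to 0.78 in the 12 same-numbered pairs of different groups, and at -0.74 to 0.75 in 36 others, so the numbers were treated as pairing libraries, on these data alone, and the block was an alternative. The both-guides fit without the block and the F test were checked on simulated data with independent libraries. The block fit was not checked in this way. Gene positions came from GENCODE 29, which held 99.9% of the table's identifiers once versions were left off. Promoters came from RefSeq.

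Members and gene lists were chosen with earlier results of these data known. Named were all members, listed genes past the threshold in any contrast with or without the block (up to 3 a list and contrast), the 5 genes most like AHCY by each measure, and genes of counts of 5 or fewer. Others were added after their values were seen. Some genes that the rule names are not reported here. Alternatives were the block, filters, quantile scaling, median centring, eBayes without trend, the 3-group model, leaving out libraries or numbers, and numbers 1 and 2 or 3 and 4 alone. Fits that combined the block with a left-out library, quantile scaling or a pair of numbers were added after seeing the data.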

Additional observations from a re-analysis of the deposited data

Results flagged for a closer look

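AHCYL1 in the library sgRNA2 4 stood at an rlog value of 10.18 (10.1833), where the other sgRNA2 libraries lay between 10.1637 and 10.1668. Its gap to them took 0.842 of the range of the 4 libraries, above Dixon's 95% critical value of 0.829, in a group whose SD was 0.01. It was 1 of 27 groups looked at (8 members and YBX1 in 3 groups), and chance alone gives about 1 in 20. The value lies inside the range of the control libraries (10.16 to 10.27).

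The residual YBX1 level differed between the guides by 0.746921 on the log2 scale (0.75, SE 0.076, limma adjusted p = 0.00133), with each sgRNA2 library above each sgRNA1 library. Among the members other than AHCY none differed between the guides past the threshold.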

How the results depend on the processing

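The both-guide difference of AHCY lay between -0.39 and -0.29 on the log2 scale over 44 alternatives. Counts of genes past the threshold moved most. With the replicate block they were 593 for both guides (11 without), 352 for sgRNA1 (5), 434 for sgRNA2 (4) and 1 for sgRNA2 against sgRNA1 (1). Leaving out a library or a number without the block gave 0 to 10 genes for both guides, 3 to 9 for sgRNA1, 1 to 5 for sgRNA2 and 0 to 1 between the guides. With the block, leaving out numbers 1, 2, 3 and 4 in turn gave 110, 421, 438 and 402 genes for both guides, 75, 237, 284 and 133 for sgRNA1, 170, 295, 156 and 198 for sgRNA2, and up to 3 between the guides. The 0 for both guides came without number 4 (770 genes at an unadjusted p under 0.05 in limma), and between the guides without number 1 (144) or 4 (69). For both guides no filter gave 5 genes and the 3-group model 6. Numbers 1 and 2 alone gave 1, 3 and 1 genes for both guides, sgRNA1 and sgRNA2, and numbers 3 and 4 alone 74, 48 and 129. With the block and 1 library left out (chosen after seeing the data) the counts were 153 to 1017, 113 to 706 and 145 to 658, highest without sgRNA2 3 for both guides and sgRNA1. The causes were not tested.

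Among the members, the block changed the call of MTR for sgRNA2 (-0.15, adjusted p = 0.0492), and that of no other member tested against control. MAT2B passed for sgRNA1 with the block in numbers 1 and 2 alone (-0.15, adjusted p = 0.0417). The remaining calls of the 7 tested members against control and between the guides kept their side of the threshold in every alternative run, and median log2 fold changes of all genes moved by less than 0.1 under other scalings. The table gives no depth, so its limits are not given.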
